A study of Mus musculus with 4 samples.

Results

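The genes described here encode the machinery of DNA replication, from the proteins that license and fire origins to the helicase, the polymerases, the sliding clamp and the enzymes that supply deoxynucleotides. The list names 37 genes, and all 37 were found among the 12393 genes that the probe sets of the array could be assigned to. They had 66 probe sets in all, 20 genes having more than 1, and the probe set that was brightest on average stood for its gene. The members lie on 14 chromosomes, and Pola1 is the only one on the X chromosome.

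The study asked how the transcriptional repressor Gfi1 acts on the fate of monocytes and granulocytes in mice. Each of 4 populations sorted from bone marrow was measured on 1 array. The mice were untreated, 8 weeks old, and on the C57BL/6 background after 10 or more generations of backcrossing. In all of them GFP had been placed in the Gfi1 gene, on both alleles (GFP:Gfi1 KI/KI) or on 1 allele (GFP:Gfi1 KI/WT), and no wild-type mouse was measured. The KI/KI mouse, which lacks Gfi1, gave CD11b+, Gr1-low cells, called Gfi1-deficient monocytes below. The KI/WT mice gave CD11b+, Gr1-low, GFP-high cells, CD11b+, Gr1-low, GFP-low monocytes, and CD11b+, Gr1-high granulocytes. No GFP gate is named for the Gfi1-deficient cells or for the granulocytes. Genotype and sort therefore differ together in each comparison with the former, and both gates differ in each comparison of granulocytes with the GFP-sorted cells. How many animals gave each RNA is not stated in the labels.

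Replication of the genome begins when the origin recognition complex, with Cdc6 and Cdt1, loads the ring of Mcm2 to Mcm7 onto DNA. The kinases Cdc7 and cyclin E-Cdk2 and the factor Cdc45 then turn the loaded ring into a running helicase, behind which polymerases copy both strands. Most of these genes are transcribed around the entry into S phase under the control of E2F transcription factors. In the bone marrow, granulocyte and monocyte precursors divide, and segmented granulocytes do not.

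Binding sites of E2F are commonly written as TTTCCCGC, TTTGGCGC, TTTCGCGC or TTTGCCGC, and these 4 octamers were searched for on both strands of the RefSeq promoters (GRCm38.p6), which run from 250 bases before to 50 bases after a start. Promoters were found for 31 members, and 12 of them (38.7%) held at least 1 of the octamers. Of all 27025 genes with a promoter 2.60% held one, and of the 7040 that were also above the detection floor of the arrays 4.97% did. Matches totalled 18 in members, overlapping matches being counted each, and TTTGCCGC was in no member. The windows below show each match that lay before the start, in 7 members, in the direction of transcription. Those of Cdc6, Mcm7, Orc1 and Pola1 overlap the annotated span of their gene, and those of Mcm5, Mcm6 and Rfc3 lie outside it. Capitals mark the octamer, written as its reverse complement where it lies on the other strand. In Mcm5 and in the upstream match of Mcm6 the 12 capitals are 2 overlapping octamers on opposite strands. The match in Rfc3 begins 10 bases before the start, and its window ends there. The octamers are shown because their share in members and in all genes differed most among the motifs searched. CCAAT, on either strand, was in 18 of the 31 promoters (58.1%) against 41.1% of all genes, and TATAAA in 3 (9.68%) against 15.7% of all genes and 9.39% of those above the floor.
Mcm5, chr8:75109345-75109378, + strand: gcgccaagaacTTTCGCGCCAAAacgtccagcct
Mcm6, chr1:128359793-128359826, - strand: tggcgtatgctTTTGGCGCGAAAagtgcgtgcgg
Mcm6, chr1:128359734-128359763, - strand: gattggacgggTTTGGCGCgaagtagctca
Mcm7, chr5:138172030-138172059, - strand: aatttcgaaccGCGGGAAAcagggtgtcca
Cdc6, chr11:98908002-98908031, + strand: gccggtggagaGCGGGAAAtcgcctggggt
Orc1, chr4:108579416-108579445, + strand: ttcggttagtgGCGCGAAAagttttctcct
Pola1, chrX:93632275-93632304, - strand: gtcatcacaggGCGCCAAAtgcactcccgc
Rfc3, chr5:151651209-151651229, - strand: acgtcgcacgcTTTCGCGCtc
Cdt1, Lig1, Mcm3, Pold1 and Pole2 held an octamer only after the start. A match is a string of letters and was not tested for binding.

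Values are taken as log2, so that a difference of 1 is 2-fold. A value of 5.18, the 40th percentile of all values, was used as a floor: lower values were raised to this floor, differences in which 1 array lay below it are bounds ("at least"), and no difference is given where both arrays were below it. With 1 array a population there is no spread between animals and no test. The error quoted is the SD between probe sets of the same gene, from 2981 genes with several, and it covers disagreement within these arrays. Array medians ran from 5.91 to 6.01, and 59.2% to 61.0% of probe sets were above the floor. On the array of Gfi1-deficient monocytes Xist read 5.80 against 9.56 to 10.93 elsewhere, and the Y-linked Eif2s3y read 8.31 and was below the floor elsewhere. By these 2 genes, sex differs together with genotype and sort in each comparison with that array. The Actb control probe sets differed between the 3' and the 5' end by 0.28 on that array and by 0.08 to 0.16 on the others. The part of these differences in the results was not tested.

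Gfi1 itself read 10.31 in GFP-high Gr1-low cells and 7.31 in granulocytes, and lay below the floor on the arrays of the other 2 populations. It read 5.1773 on the array labelled knock-out, just under the floor of 5.1776, and 3.74 in GFP-low monocytes, which come from KI/WT mice. The knock-out array was therefore not the lowest for the targeted gene. Between the GFP-gated populations the gene was high where GFP was high. Itgam, which encodes CD11b, read 10.28 to 11.92 on the 4 arrays. All 7 monocyte markers read, among them Csf1r, Ccr2 and Irf8, were lower in GFP-high Gr1-low cells than in GFP-low monocytes by more than 2-fold, with a median difference of -4.68. All 5 primary granule genes, such as Mpo and Elane, were higher there, with a median difference of 4.38. The 7 monocyte markers were still above the floor in the GFP-high fraction, from Cx3cr1 (5.71) to F13a1 (9.08). Because of these differences from GFP-low monocytes, the GFP-high fraction, labelled as monocytes, is called by its gate here. Kit, the receptor of early precursors, read 8.11 in it, 6.51 in granulocytes, and under the floor elsewhere. Cd34 and Meis1, from the same list of stem and progenitor genes, were below the floor in the GFP-high fraction.

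GFP-high Gr1-low cells had all 37 replication genes above the floor, and the median level of the members was 9.29. Gfi1-deficient monocytes had 35 above it, with a median of 8.25, GFP-low monocytes 35, with 7.85, and granulocytes 32, with 6.39. For genes above the floor on at least 3 arrays, the order of a gene's readings is known. Of the 35 such members, 35 read highest in GFP-high Gr1-low cells, against 24.8% of the 7750 such genes, and 33 read lowest in granulocytes, against 39.4%. The full order GFP-high, Gfi1-deficient, GFP-low, granulocytes was seen in 33 of the 35, against 11.6%, and the exceptions were Rfc1 and Rfc2. Orc1 and Tyms, which read above the floor on the GFP-high array alone, are not among the 35.

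**Figure D1:**
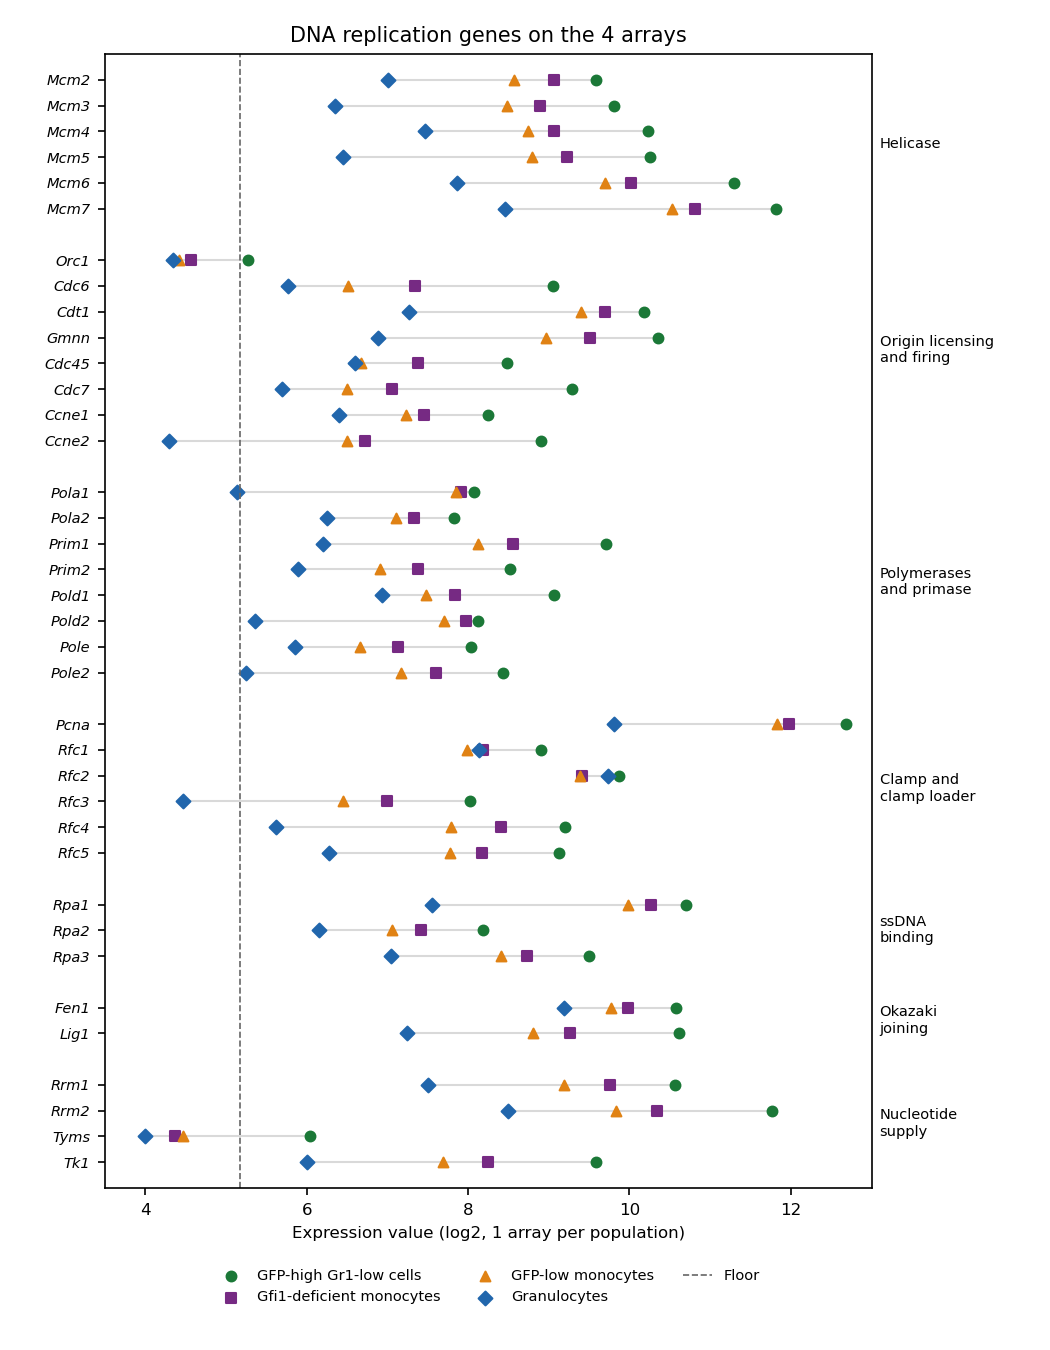
Log2 expression value (x axis) of each of the 37 DNA replication genes (rows, grouped by role) on the 4 arrays, 1 point per array, with the floor of 5.18 as a dashed line. GFP-high Gr1-low cells (circles) lie to the right in each row, and granulocytes (diamonds) lie to the left except in the rows of Rfc1 and Rfc2.

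GFP-high Gr1-low cells and GFP-low monocytes share genotype and Gr1 gate and differ in the Gfi1 reporter. Of 37 replication genes, 26 were higher in GFP-high cells by 2-fold or more, against 9.03% of the 8232 genes compared, and 0 were lower by as much, against 9.61%. The median difference of the members was 1.35, or 2.54-fold, beside 0.03 for all genes, with a probe set SD of 0.32. At the 4-fold mark stood Cdc7 (6.93-fold), Cdc6 (5.81-fold) and Ccne2 (5.30-fold), against 2.48% of all genes. This choice of genes depends on the probe set: the other one of Cdc7 gave a bound of 1.60, and the others of Rrm2 (2.37 and 2.10) and of Mcm2 (2.03) were past 4-fold. Of the 11 members under 2-fold, Pola1 (0.23), Pold2 (0.42) and Rfc2 (0.49) had the smallest measured differences, and Orc1 and Tyms have lower bounds only. By another probe set Fen1 (1.38) and Rfc1 (1.01) were past 2-fold, and the remaining one of Rfc1 gave 0.93.

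Granulocytes and GFP-low monocytes come from the same genotype and differ in the Gr1 gate, and only the monocytes were gated on GFP. In granulocytes 24 of 35 measured replication genes were at least 2-fold lower, against 18.2% of 8503 genes, and 0 were at least 2-fold higher, against 10.0%. The median was -1.51, or 2.84-fold lower, beside 0.0004 for all genes, with a probe set SD of 0.38. Pola1, of the priming polymerase, was lower by at least 6.37-fold, Rpa1, which coats single-stranded DNA, by 5.36-fold, Pold2, of the lagging-strand polymerase, by 5.09-fold and Mcm5 by 5.06-fold. In all, 10 members were at least 4-fold lower, against 4.45% of all genes. The 11 members under 2-fold were Cdc6, Cdc45, Cdc7, Ccne1, Pola2, Pold1, Pole, Rpa2, Fen1, Rfc1 and Rfc2, of which only Rfc1 (0.15) and Rfc2 (0.35) had a difference above 0. By their other probe sets Rpa2 (-1.51) and Fen1 (-2.14) were past 2-fold.

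Granulocytes set against GFP-high Gr1-low cells gave the widest differences. Here 33 of 37 members were at least 2-fold lower in granulocytes, against 16.4% of 8457 genes, and 0 higher, against 8.93%. In 29 the difference was 4-fold or more, against 4.43%. The median of the members was -2.87, a 7.31-fold lower level, with a probe set SD of 0.35 and a median of 0.03 over all genes. Mcm5 was 13.97-fold, Ccne2 at least 13.24-fold, Cdc7 12.07-fold and Tk1 12.02-fold lower. The members under 2-fold were Rfc1 (-0.77), Rfc2 (-0.14), and Orc1 and Tyms, which were below the floor in granulocytes. A lower level in sorted bulk cells can come from fewer cells of a dividing kind or from less RNA per cell, and these cannot be told apart.

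Replication genes differed little between Gfi1-deficient and GFP-low monocytes, and in 1 direction by the probe sets used. All 35 measured members read higher in Gfi1-deficient monocytes, against 54.8% of the 8010 genes compared. None reached 2-fold, against 0.637% of all genes higher and 1.27% lower. The median was 0.40, or 1.32-fold, beside 0.03 for all genes, and 32 of the 35 were higher by more than the probe set SD of 0.18, against 27.8% of all genes. At a mark of 1.5-fold 3 were higher, against 2.86%. The largest were Cdc6 (0.82), Cdc45 (0.71) and Rfc4 (0.62), and those within the SD were Rfc2 (0.03), Pola1 (0.07) and Pcna (0.16). Another probe set of Rfc1 read -0.0033 where the one used read 0.20. Secondary granule genes differed far more in this comparison, with a median of -2.10 and 3 of 6 at least 2-fold lower, namely Camp (-5.04), Ltf (-4.82) and Ngp (-3.52). GFP-low monocytes themselves read these 3 genes high, at 12.41, 12.18 and 13.32, beside 13.96, 14.10 and 14.29 in granulocytes. The arrays here also differ in sex, by Xist and Eif2s3y, and in the 3' to 5' reading of Actb, and their part was not tested.

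Set against GFP-high Gr1-low cells, Gfi1-deficient monocytes had 15 of 37 members at least 2-fold lower, against 7.81% of 8195 genes, and 0 higher, against 9.53%. The median was -0.86, which is the bound of Tyms, beside -0.02 for all genes, with a probe set SD of 0.32. Without Orc1 and Tyms, which are bounds here, it was -0.90 over 35 members. At a mark of 1.5-fold 29 were lower, against 15.6%. Cdc7 (-2.23) and Ccne2 (-2.18) stood furthest apart, the 2 members past 4-fold, against 2.4% of all genes. Granulocytes had 30 of 35 measured members at least 2-fold lower than Gfi1-deficient monocytes, against 20.3% of 8520 genes, and 0 higher, against 11.2%. In 17 the difference was 4-fold or more, against 6.04%. The median there was -1.90, with a probe set SD of 0.43. Comparisons that share an array share its error, so the 6 sets of differences are not independent of each other.

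**Figure D2:**
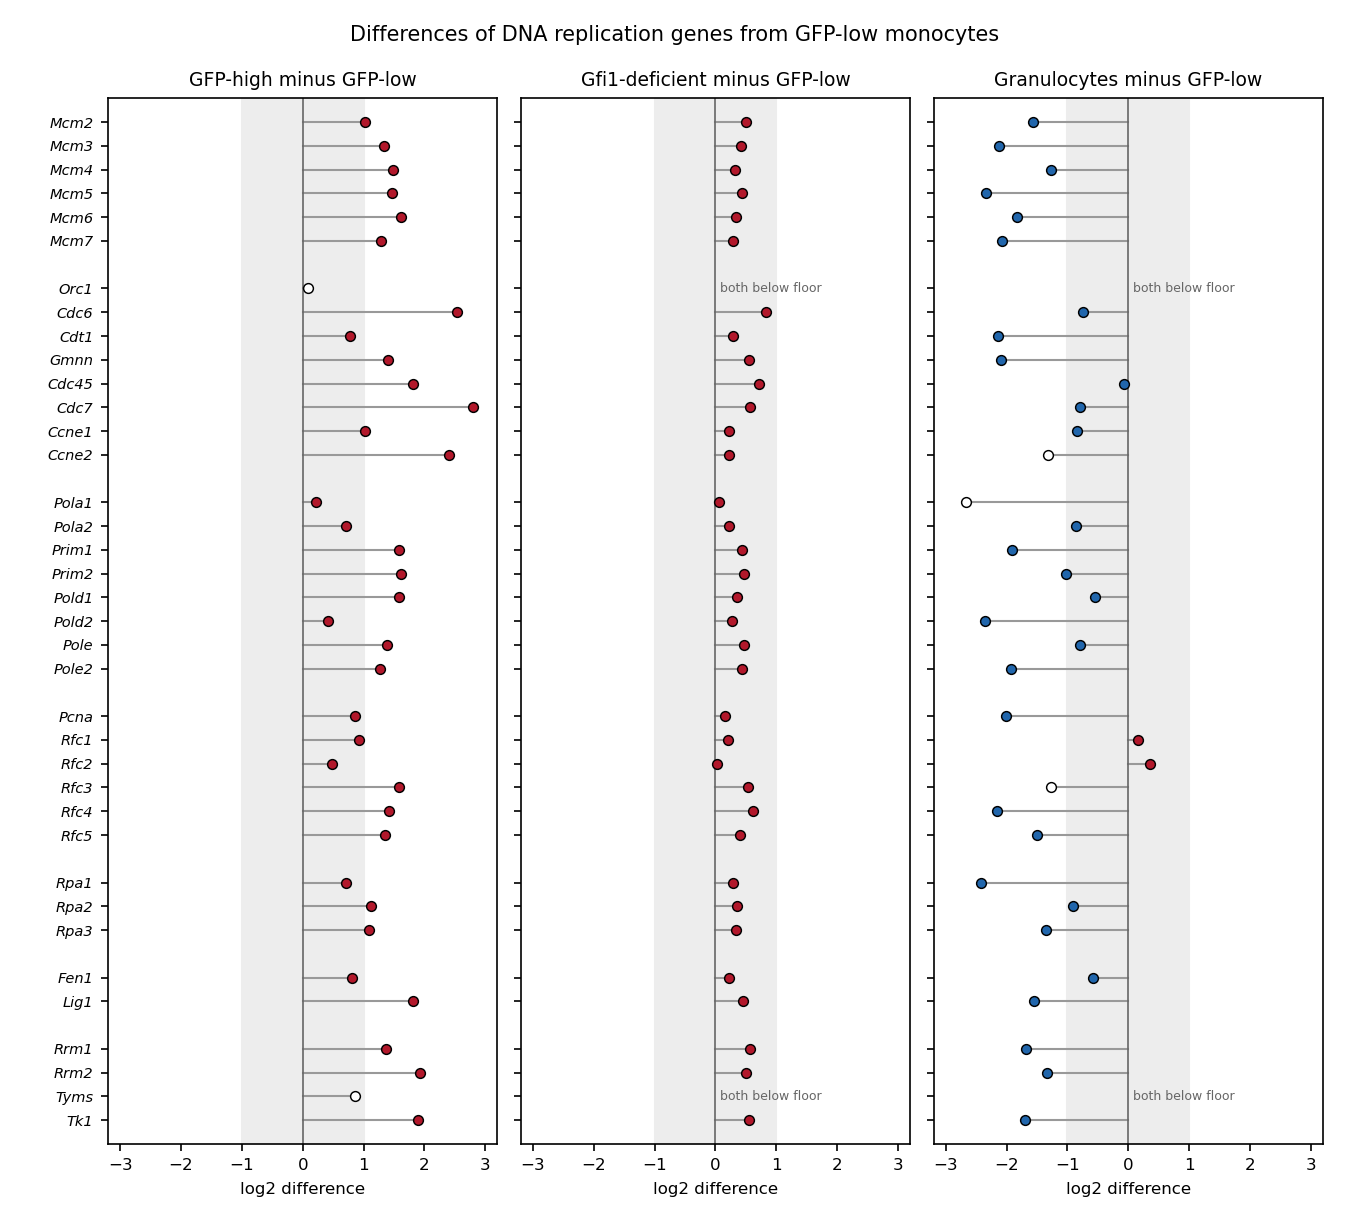
Log2 difference (x axis) of each DNA replication gene from GFP-low monocytes, in GFP-high Gr1-low cells (left), Gfi1-deficient monocytes (middle) and granulocytes (right). Open points are bounds with 1 array below the floor, and the grey band spans differences under 2-fold: 26 members lie right of it in the left panel, 0 lie outside it in the middle panel and 24 lie left of it in the right panel.

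**Figure D3:**
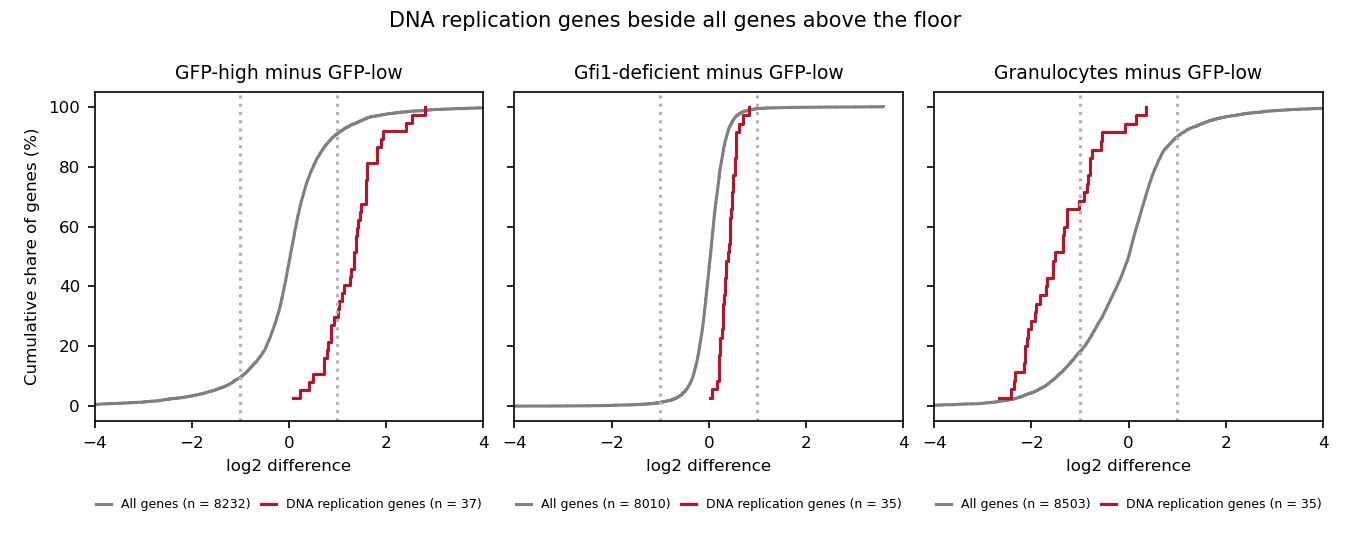
Cumulative share of genes (y axis, %) by log2 difference from GFP-low monocytes (x axis) for all genes above the floor on either array (grey) and for the DNA replication genes (red), with dotted lines at 2-fold. The red curve is shifted to the right for GFP-high Gr1-low cells (median 1.35), slightly to the right for Gfi1-deficient monocytes (median 0.40) and to the left for granulocytes (median -1.51).

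The genes of the helicase ring, Mcm2 to Mcm7, were all past 2-fold by the probe sets used in both of the main comparisons with GFP-low monocytes. For Mcm3, other probe sets gave 0.97 and a bound of 0.375 between GFP-high and GFP-low cells. Its dimmest one gave a bound of 0.23 for granulocytes minus GFP-low monocytes. The 6 subunits differed between GFP-high Gr1-low cells and GFP-low monocytes by 1.02 to 1.61, and between granulocytes and GFP-low monocytes by -2.34 to -1.27. Mcm5 read 10.25 in GFP-high cells, 9.22 in Gfi1-deficient monocytes, 8.79 in GFP-low monocytes and 6.45 in granulocytes. Mcm6 read 11.30, 10.02, 9.69 and 7.86 in the same order, and Mcm7 11.82, 10.81, 10.53 and 8.46. Mcm3 read 9.81, 8.89, 8.48 and 6.35. In each of these genes the granulocyte array was the low one and the others lay within 1.61 of each other. Mcm4 (10.23, 9.06, 8.74, 7.47) and Mcm2 (9.59, 9.07, 8.57, 7.01) had the smallest granulocyte differences of the ring. For Mcm2 another probe set gave 2.03 in place of 1.02 between GFP-high and GFP-low cells, and -1.65 in place of -0.53 between Gfi1-deficient and GFP-high cells, so its place among the 6 depends on the probe set.

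Genes of origin licensing and firing varied more among themselves. Cdc6, the loader that brings the helicase to the origin complex, read 9.06 in GFP-high Gr1-low cells, 7.34 in Gfi1-deficient monocytes, 6.52 in GFP-low monocytes and 5.77 in granulocytes. Cdc7, the kinase that fires loaded origins, read 9.29, 7.05, 6.49 and 5.69. Ccne2, a cyclin E gene, read 8.90, 6.72 and 6.50 and was below the floor in granulocytes. In these 3 genes the GFP-high array stood alone at the top, by at least 1.72 above the next array. Cdc45, a part of the running helicase, read 8.48, 7.38, 6.67 and 6.60, so that GFP-low monocytes and granulocytes differed by -0.08. Ccne1, the other cyclin E gene, had smaller differences, with 8.25, 7.45, 7.23 and 6.39.

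Cdt1 and Gmnn form a pair, since geminin, the product of Gmnn, binds Cdt1 and stops a second round of licensing. Cdt1 read 10.19 in GFP-high Gr1-low cells, 9.69 in Gfi1-deficient monocytes, 9.40 in GFP-low monocytes and 7.27 in granulocytes. Gmnn read 10.36, 9.51, 8.96 and 6.88. Both were more than 4-fold lower in granulocytes than in GFP-low monocytes (-2.14 and -2.08). Between GFP-high and GFP-low cells the activator differed by 0.78, under the 2-fold mark, and the inhibitor by 1.39. Orc1, the subunit of the origin complex whose level varies through the cell cycle, read 5.27 in GFP-high cells, just above the floor, and below it elsewhere, so it carries little information here.

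Among the polymerases, the subunits of 1 enzyme did not all behave alike. Pola1, the catalytic subunit of the priming polymerase, read 8.08 in GFP-high Gr1-low cells, 7.92 in Gfi1-deficient monocytes, 7.85 in GFP-low ones and was below the floor in granulocytes. Prim1, the primase subunit of the same complex, read 9.71, 8.55, 8.12 and 6.21. Between GFP-high and GFP-low cells Pola1 thus differed by 0.23, within the probe set SD, and Prim1 by 1.59. Prim2, the other primase subunit, differed by 1.62, with 0.68 by another probe set, and Pola2 by 0.71.

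A similar split was seen in the lagging-strand polymerase delta. Its catalytic subunit gene Pold1 read 9.07, 7.84, 7.48 and 6.93 in the order GFP-high, Gfi1-deficient, GFP-low, granulocytes. Its accessory subunit gene Pold2 read 8.12, 7.98, 7.70 and 5.36. Pold1 was 3.01-fold higher in GFP-high than in GFP-low cells and 1.46-fold lower in granulocytes, whereas Pold2 was 1.34-fold higher and 5.09-fold lower. The leading-strand polymerase genes Pole and Pole2 differed by 1.38 and 1.26 in the former comparison and by -0.80 and -1.92 in the latter.

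Pcna, the sliding clamp that holds polymerases on DNA, read 12.68 in GFP-high Gr1-low cells, 11.98 in Gfi1-deficient monocytes, 11.82 in GFP-low monocytes and 9.81 in granulocytes. Granulocytes stood 4.03-fold below GFP-low monocytes, 4.50-fold below Gfi1-deficient monocytes and 7.31-fold below GFP-high cells. The clamp is opened by replication factor C, a complex of Rfc1 to Rfc5, whose genes fell into separate patterns. Rfc4 read 9.20, 8.41, 7.78 and 5.62, Rfc5 read 9.12, 8.18, 7.78 and 6.27, and Rfc3 read 8.03, 6.99 and 6.45 and was below the floor in granulocytes. Rfc1, the large subunit, read 8.91, 8.19, 7.99 and 8.14, and Rfc2 read 9.87, 9.41, 9.38 and 9.73. In these 2 genes the granulocyte array did not stand below the GFP-low array, and all 3 probe sets of Rfc1 gave a difference between 0.14 and 0.41.

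Replication protein A covers single-stranded DNA at the fork. Rpa1, its large subunit gene, read 10.70 in GFP-high Gr1-low cells, 10.26 in Gfi1-deficient monocytes, 9.98 in GFP-low monocytes and 7.56 in granulocytes. Rpa2 read 8.19, 7.42, 7.06 and 6.15, and Rpa3 read 9.50, 8.73, 8.40 and 7.04. The large subunit had the smaller difference between GFP-high and GFP-low cells (0.72, against 1.13 and 1.09) and the larger one between granulocytes and GFP-low cells (-2.42, against -0.91 and -1.36).

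Fen1 and Lig1 trim and seal the fragments of the lagging strand. Lig1, a DNA ligase gene, read 10.61, 9.26, 8.80 and 7.25 in the order GFP-high, Gfi1-deficient, GFP-low, granulocytes. Fen1, a flap endonuclease gene, read 10.58, 9.98, 9.77 and 9.19 by the probe set used, whose name ends in _x_at, the maker's mark for probes that may also match other transcripts. Its other probe set read 9.57, 8.68, 8.19 and 6.05, which moves the granulocyte difference from -0.57 to -2.14. The low rank of Fen1 among the members therefore holds for 1 of its 2 probe sets.

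Ribonucleotide reductase, thymidine kinase and thymidylate synthase supply deoxynucleotides. Rrm2, the small subunit of ribonucleotide reductase that is made in S phase, read 11.77 in GFP-high Gr1-low cells, 10.34 in Gfi1-deficient monocytes, 9.84 in GFP-low monocytes and 8.50 in granulocytes. Rrm1, the large subunit, read 10.56, 9.76, 9.19 and 7.50. Tk1, the thymidine kinase of dividing cells, read 9.59, 8.25, 7.69 and 6.00. GFP-high cells exceeded GFP-low monocytes by 3.80-fold in Rrm2, 2.59-fold in Rrm1 and 3.72-fold in Tk1. Tyms, thymidylate synthase, read 6.04 in GFP-high cells and below the floor elsewhere, and its other probe sets were below the floor on all 4 arrays.

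Probe sets of a member mostly moved together. Of the 18 members with several measured probe sets between GFP-high and GFP-low cells, all had the same sign, and of 17 between granulocytes and GFP-low monocytes 16 did. Of 14 such members past the 2-fold mark by the probe set used between GFP-high and GFP-low cells, 12 had all probe sets past it. Mcm3 and Prim2 did not. Rfc1 had probe sets of both signs in the comparisons of Gfi1-deficient monocytes with GFP-low monocytes and with granulocytes. The exception in granulocytes against GFP-low monocytes was Mcm3, whose dimmest probe set read 5.55 in GFP-high cells and 5.41 in granulocytes and under the floor in the remaining populations. It gave a bound of 0.23 for granulocytes minus GFP-low monocytes where the 4 brighter ones gave -2.12 to -1.59. Between Gfi1-deficient monocytes and GFP-high cells the probe sets divided more often at the 2-fold mark: of 9 such members past it, 4 had all probe sets past it, and Mcm4, Mcm6, Mcm7, Prim1 and Prim2 did not. The median gap between a gene's extreme probe sets was 0.21 in the GFP-high and 0.27 in the granulocyte comparison with GFP-low monocytes.

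**Figure D4:**
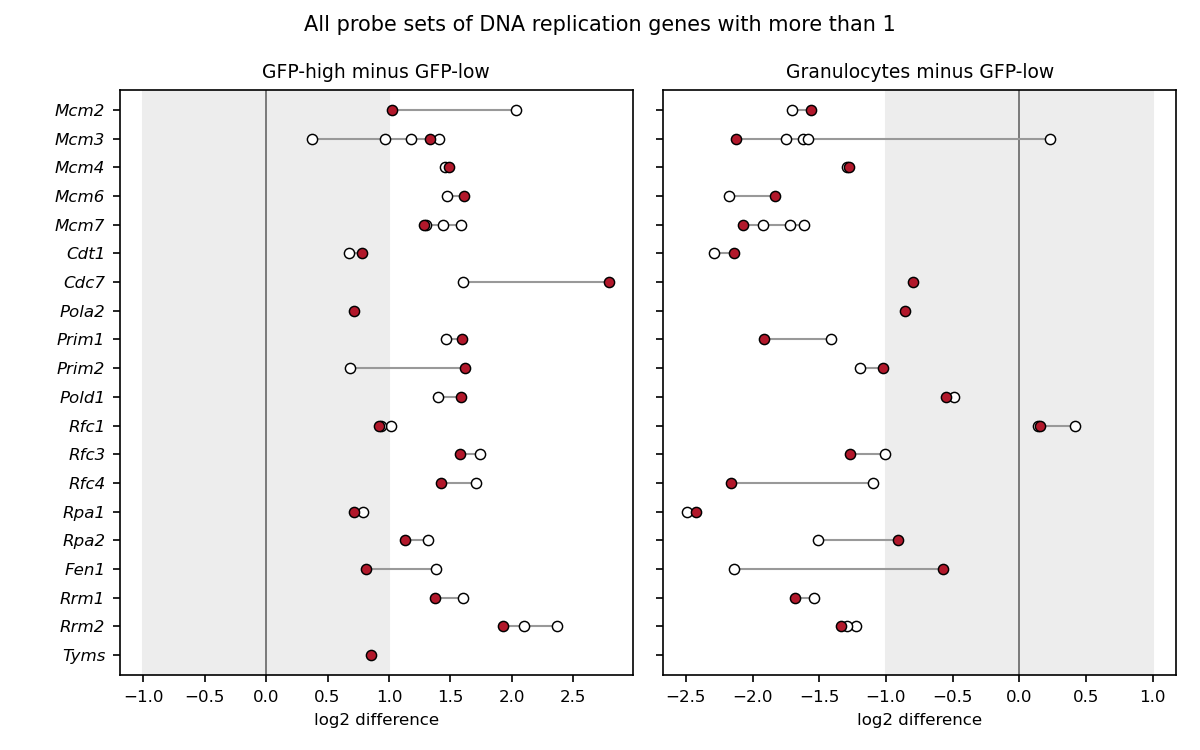
Log2 difference (x axis) by each probe set of the 20 members with more than 1, for GFP-high Gr1-low cells (left) and granulocytes (right) minus GFP-low monocytes. The probe set used is filled, the others are open, those below the floor on both arrays are left out, and the grey band spans differences under 2-fold: Mcm3 spans -2.12 to 0.23 in the right panel.

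Other genes of the same processes were read from lists of related genes. Of 22 measured further origin and fork genes, 9 were higher and 2 lower by 2-fold or more in GFP-high Gr1-low cells set against GFP-low monocytes, with a median of 0.81. In granulocytes 10 of the 22 were lower than in GFP-low monocytes and 0 higher, with a median of -0.94. For this list and those below, the shares of all genes past 2-fold from GFP-low monocytes stand beside the counts. They were 9.03% higher and 9.61% lower in GFP-high cells, and 10.0% higher and 18.2% lower in granulocytes. In Gfi1-deficient monocytes they were 0.637% and 1.27%. Tipin, of the fork protection complex, differed by 1.67 and -1.80, and Dbf4, the activator of Cdc7, was lower by 1.79 in granulocytes. Dna2, a nuclease and helicase of fragment processing, went the other way in GFP-high cells, reading 9.22 there, 10.64 in GFP-low monocytes, 10.42 in Gfi1-deficient ones and 7.89 in granulocytes.

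All 7 measured genes of replication-coupled chromatin assembly and maintenance stood 2-fold or more higher in GFP-high Gr1-low cells than in GFP-low monocytes, with a median of 1.42. They included Hells (2.26) and Uhrf1 (2.22), which help to keep DNA methylation through S phase. In granulocytes 5 of the 7 were lower, among them the histone chaperone genes Asf1b (-1.82) and Nasp (-1.63). Mitosis genes had medians of 1.15 and -1.56, with 12 of 19 past 2-fold upward in GFP-high cells and 17 of 19 lower in granulocytes. Cdk1, the mitotic kinase, differed by 1.57 in the former and Bub1, of the spindle checkpoint, by -2.34 in the latter.

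Other genes of nucleotide synthesis were less uniform, with medians of 0.50 and -0.58 over 18 genes. In GFP-high Gr1-low cells 5 were at least 2-fold higher than in GFP-low monocytes, against 9.03% of all genes. Dtymk (2.06) and Dut (2.01), which serve the supply of thymidine nucleotides, led them. In the other direction 1 was lower, against 9.61%. That gene was Samhd1, whose product breaks deoxynucleotides down, reading 9.10 in GFP-high cells, 11.41 in Gfi1-deficient monocytes, 11.71 in GFP-low monocytes and 11.18 in granulocytes. In granulocytes 6 were lower than in GFP-low monocytes, against 18.2% of all genes, led by Paics (-2.82), a purine synthesis gene. Another 2 genes were higher, against 10.0%. The larger of these was Rrm2b, the reductase subunit that is not tied to S phase, which read 8.31 in granulocytes and 6.66 to 7.07 on the other arrays, opposite in direction to Rrm2.

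Genes of the E2F factors, their DP partners and the pocket proteins that restrain them had medians of 0.32 and -0.33 over 10 genes. Tfdp1, a DP partner, read 11.44 in GFP-high Gr1-low cells, 9.28 in Gfi1-deficient monocytes, 8.99 in GFP-low monocytes and 10.56 in granulocytes, and so was higher in granulocytes than in GFP-low monocytes by 1.57. E2f8, an atypical E2F, read 10.70, 9.34, 9.16 and 8.09, and Rbl1, a pocket protein gene, read 9.46, 8.73, 8.43 and 6.65. E2f6, a repressive E2F, read 7.30, 7.58 and 7.39 on the arrays of Gr1-low cells and was below the floor in granulocytes, which bounds the difference from GFP-low monocytes at -2.21. In Gfi1-deficient against GFP-low monocytes 0 genes of these 5 lists reached 2-fold, and the list medians lay between 0.18 and 0.40.

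**Figure D5:**
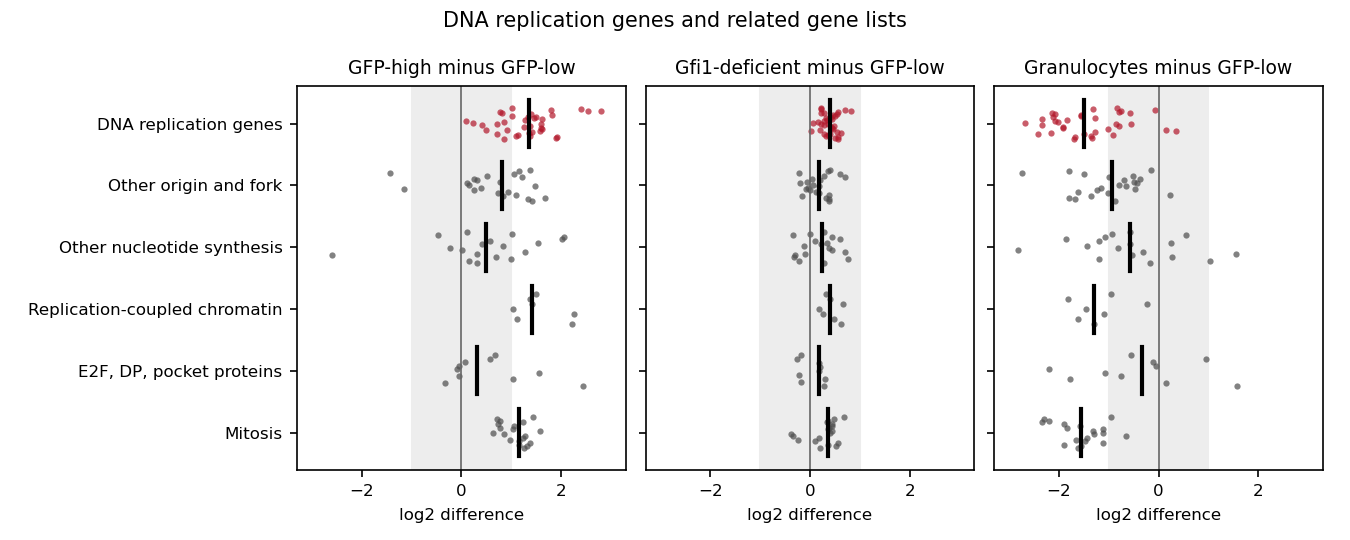
Log2 difference from GFP-low monocytes (x axis) for the DNA replication genes (red) and 5 related lists (dark grey), 1 point per gene above the floor on either array, the black bar being the median and the grey band differences under 2-fold. In GFP-high Gr1-low cells the medians run from 0.32 for the E2F, DP and pocket protein genes to 1.42 for the chromatin genes, and in granulocytes from -1.56 for the mitosis genes to -0.33.

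Members with and without an E2F octamer in the promoter were set side by side. The 12 with one had a median difference of 1.40 between GFP-high Gr1-low cells and GFP-low monocytes, and the 19 with a promoter and no octamer had one of 1.09. Between granulocytes and GFP-low monocytes the medians were -1.93 over 11 measured genes and -1.43 over 18.

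Markers of other cells moved with the replication genes in part. The summed linear signal of 5 primary granule genes was 45029 in GFP-high Gr1-low cells, 11811 in Gfi1-deficient monocytes, 2018 in GFP-low monocytes and 1664 in granulocytes, but GFP-low monocytes and granulocytes kept this order in 3 of the 5 genes only. Mpo and Ms4a3 read higher in granulocytes by 1.28 and 1.30, and the median level of the list was 8.08 in GFP-low monocytes and 8.26 in granulocytes. All 5 genes also exceeded 2-fold in Gfi1-deficient over GFP-low monocytes. Of 5 eosinophil markers 4 were measured between GFP-high and GFP-low cells and 3 were at least 2-fold higher in the former, the sums being 6092, 1852, 272 and 352 in the same order of arrays. Il5ra, the interleukin-5 receptor of eosinophils, was below the floor throughout. In the list of stem and progenitor genes 2 of 5 measured, Kit and Myb, were 2-fold or more higher in GFP-high than in GFP-low cells. Flt3 (-0.53), Gata2 (-0.20) and Sox4 (-0.20) read lower, and the list median was -0.20. Cd34 and Meis1 were below the floor on both arrays. The sums were 2542, 708, 710 and 1180 in the same order of arrays. The part of these cells in the results was not tested.

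Lists for lymphoid, erythroid and other lineages were read too. Of 7 B cell and pre-B cell markers, Pax5 and Ebf1 were below the floor on all 4 arrays, and the summed signal was 340 in GFP-high Gr1-low cells, 277 in Gfi1-deficient monocytes, 443 in GFP-low monocytes and 698 in granulocytes. Among 6 erythroid markers Hba-a1, an alpha globin gene, was below the floor on all 4 arrays. Of 5 measured between GFP-high and GFP-low cells only Tfrc, the transferrin receptor of many dividing cells, was at least 2-fold higher, and the sums were 1272, 451, 725 and 1085. T and NK cell markers had 1 of 3 measured higher in GFP-high cells, Nkg7 at 5.59, while Cd3g and Cd2 were below the floor on all arrays. Plasma cell markers had 0 of 4 higher and 1 lower, Jchain at -2.58, and megakaryocyte markers 0 of 4 in either direction. Secondary granule genes were higher in GFP-high than in GFP-low cells for 4 of 6, and mature neutrophil genes for 3 of 6 with 3 lower, the latter being higher in granulocytes for 6 of 6.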

How the data were processed

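The 4 arrays carried biotin-labelled cRNA made from 6 µg of total RNA, per the labels' protocols. The values deposited by the authors were taken as log2 signals, 1 for each of 22690 probe sets per array. That unit was inferred from their range of 2.70 to 14.50. How the signals were background-corrected, summarised and scaled, and the log base, is not given in the sources used here. No rescaling was applied. A common normalization would hide a shift shared by most genes.

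Symbols came from the platform annotation, and 20364 of 20393 single-gene probe sets matched a gene identifier of GRCm38.p6 with 0 symbols altered. Floor, bounds, size rule and probe set SD are defined with the results. Differences were computed with Python 3.11.15, numpy 2.4.6 and pandas 2.3.3, and checked on simulated data. Alternatives covered the floor, the scaling, the choice of probe set and the size rule. All 37 members were to be reported, and from each related list up to 3 genes per comparison, those with the largest differences. Members, lists and rules were chosen with earlier results of these data known. Control probe sets (64) and probe sets with several genes (691) or none (1606) named no gene.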

Additional observations from a re-analysis of the deposited data

How the results depend on the processing

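Under 9 alternatives each, the counts of members at least 2-fold higher or lower stayed within 1.5 times the reported count in all 6 comparisons. The floor at the 60th percentile brought 24 of 35 to 16 of 29 for granulocytes minus GFP-low monocytes. It brought 30 of 35 to 20 of 34 for granulocytes minus Gfi1-deficient monocytes. Both counts are at the limit of 1.5 times. The member medians kept their sign and stayed within the probe set SD, except with the floor at the 60th percentile, which raises low granulocyte values by construction. There the median was -2.40 for granulocytes minus GFP-high cells and -1.41 for granulocytes minus Gfi1-deficient monocytes. Over the alternatives the median ran from 1.33 to 1.40 for GFP-high minus GFP-low cells, from -1.55 to -1.27 for granulocytes minus GFP-low monocytes and from 0.35 to 0.43 for Gfi1-deficient minus GFP-low monocytes. Mcm3 turned to 0.23 by its dimmest probe set in granulocytes minus GFP-low and in granulocytes minus Gfi1-deficient monocytes, a bound on both. At 1.5-fold, 3 members were apart in Gfi1-deficient minus GFP-low (2.86% of all genes were higher by as much) and 29 in Gfi1-deficient minus GFP-high cells (15.6% lower). No paired analysis was possible because each population had 1 array. With 1 array each, no alternative measures the spread between animals, and Orc1 and Tyms were limited by low signal.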

Other observations

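Genes outside the list that hold an E2F octamer in their RefSeq promoter were also read, a set chosen after the members' values were seen. Of 336 such genes measured between GFP-high Gr1-low cells and GFP-low monocytes, 14.3% were at least 2-fold higher and 4.46% lower, with a median of 0.15. Among 6371 other genes with a promoter and no octamer the shares were 8.55% and 9.83%, with a median of 0.02. In granulocytes minus GFP-low monocytes, 25.7% of 335 genes with an octamer were at least 2-fold lower, with a median of -0.31, against 17.8% of 6581 genes without. In Gfi1-deficient minus GFP-low monocytes the medians were 0.12 over 330 genes and 0.03 over 6203. The 12 members with an octamer had larger medians in each of these comparisons, 1.40, -1.93 and 0.42. Members with a promoter and no octamer had 1.09, -1.43 and 0.38, also larger in size than in the genes outside the list.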
